A study of Danio rerio with 20 samples.

Results

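The autophagy machinery genes of the zebrafish liver were taken from the count table by symbol. They comprise every gene whose symbol, matched from its Ensembl identifier and with case ignored, begins with atg, ulk or wipi and a digit, or with map1lc3, gabarap, becn1, sqstm1, optn, rb1cc1, tfeb or uvrag. This gave 39 of 32105 genes, and 37 of the 39 were among the 18079 genes with enough reads to be tested. Messenger RNA was sequenced from livers of male zebrafish of the strain labelled AB JxTu, in 4 groups of 5 samples. Resting fish (perturbation: none) and fish exercised in a swim tunnel, a chamber with a current to swim against, were each sampled at 1 year and at 3 years of age. No group carries a named mutation or transgene, and the labels used here do not give the length of the exercise. The labels do not say whether each sample came from a separate fish, so p-values measure the spread between samples, which may be technical.

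Autophagy encloses a portion of the cell, such as proteins, lipid droplets or mitochondria, in a growing double membrane that closes to an autophagosome and fuses with the lysosome, where the contents are degraded. In liver it is known as a supply of amino acids and fatty acids during fasting, and as a means of clearing damaged organelles. A kinase complex starts the process, a lipid kinase complex marks the membrane, lipid carriers enlarge it, and linked conjugation systems attach small proteins of the Atg8 family to it, which hold cargo receptors. The roles given below are those known from yeast and mammals. Transcript levels do not measure how fast autophagosomes form or are degraded.

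Library totals ranged from 33046127 to 49579666 counts. Levels are CPM, read counts divided by the library total after correction with edgeR's TMM factors. The factors ran from 0.739 in resting 3-year replicate 4 to 1.39 in resting 1-year replicate 5, and a larger factor lowers the level. Gaps or overlaps between groups hold on this scale and may differ in plain CPM, which is scaled to the library total alone. Sums of marker lists are in plain CPM instead. Each library carried the hepatocyte marker list at a summed level of 92145 to 265851 plain CPM, led by the transferrin gene tfa, so the labelled tissue was evident in all 20. Transcripts of neighbouring organs varied beside it: the enterocyte lipid carrier gene FABP2 exceeded 100 plain CPM in 7 of the libraries, and the exocrine pancreas list, led by prss1, summed to between 14.5 and 136648 plain CPM. The 7 libraries with intestinal reads were resting 1-year replicate 5, exercised 1-year replicates 3 and 4, resting 3-year replicate 3 and exercised 3-year replicates 1, 2 and 5. The 7 libraries differed in other lists too. The exocrine pancreas list had a median sum of 27255 plain CPM in them (6639 to 86332) and 1983 in the others (14.5 to 136648). The highest pancreas sums, 136648 plain CPM in resting 1-year and 112639 in resting 3-year fish, were in libraries that remain when the 7 are left out. For the hepatocyte list the medians were 110184 and 224055 plain CPM, and for the myeloid list 109 and 42.6, with overlapping ranges in each. Differences that go with intestinal reads can therefore not be told apart from these. Called autophagy genes are given below with and without the 7 libraries. In such bulk samples, fewer cells of a type and less RNA per cell cannot be told apart.

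Levels of different genes were set side by side per kilobase of gene length. Of the 7 genes of the Atg8 family, the small proteins that are coupled to the autophagosome membrane, 5 were among the 6 highest members, with the cargo receptor SQSTM1 (p62), which carries ubiquitinated proteins to them. The median over 20 libraries was 47.8 CPM per kilobase for gabarapb, 31.9 for gabarapa, 29.5 for GABARAPL2, 28.3 for SQSTM1, 26.4 for MAP1LC3B and 25.6 for MAP1LC3A. Lowest among the 37 tested genes stood ULK4, a relative of the initiating kinases, at 0.0829 CPM per kilobase, the lipid transfer gene atg2b at 0.117, atg16l2 at 0.216 and the transcription factor TFEB at 0.272. Together the 7 Atg8 family genes summed to 147 ± 8.0 CPM per kilobase at rest and 169 ± 15.1 after exercise at 1 year, and to 179 ± 32.0 and 161 ± 17.5 in resting and exercised 3-year fish (mean ± SD, n = 5 each). The sums ran from 137 to 156 in resting and from 151 to 184 in exercised 1-year fish, so these groups overlapped at their edge, as they did with the 3-year groups. With the 7 libraries left out the means were 146, 162, 183 and 178 CPM per kilobase in resting and exercised 1-year and resting and exercised 3-year fish.

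The remaining members of that family, map1lc3c and map1lc3cl, were the 2 genes that were not tested. They gave 31 and 69 reads in all 20 libraries together, and 0 reads in 7 and 10 of them. A count of 0 allows up to 3 counts, or 0.0605 to 0.0908 plain CPM depending on the library, for counting error only. For map1lc3cl the highest value, 0.575 CPM, was in exercised 1-year replicate 4. Exercised 1-year fish were the only group with a read of it in every library.

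**Figure D1:**
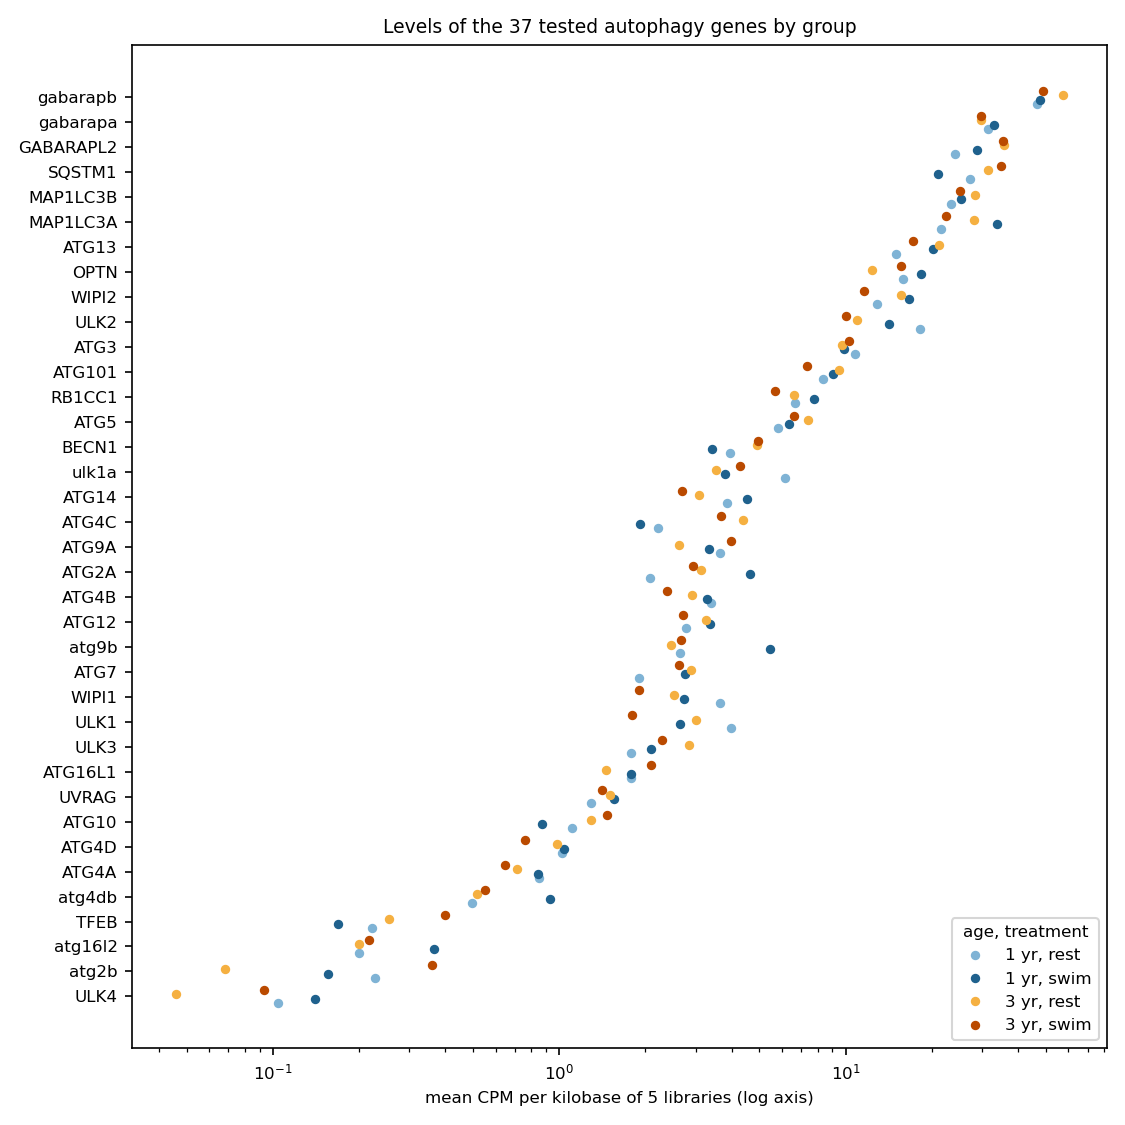
Mean level of each tested autophagy gene in the 4 groups, in CPM per kilobase on a log axis, ordered by the median over libraries. The gabarap genes, SQSTM1 and the MAP1LC3 genes stand at the top, and ULK4, atg2b and atg16l2 at the bottom.

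How much a gene varied between libraries of 1 group differed across the machinery. Among the tested genes with reads in every library, ULK2, one of the kinases that start autophagy, had the widest spread. Its standard deviation was 1.05 on the log2 scale within groups, with single libraries from 15.6 to 207 CPM. The gene atg2b, at 0 to 1.48 CPM, had 0 reads in 1 library and was not ranked. ATG7, ATG3 and gabarapa had the narrowest, at 0.159, 0.162 and 0.173. Libraries with intestinal reads were higher than the others of their own group, on average and in all 4 groups, for 7 of 37 genes (ATG16L1, ATG4A, ATG9A, MAP1LC3B, OPTN, TFEB and ulk1a). They were lower in all 4 groups for 6 genes (ATG101, ATG13, ATG4C, ULK3, WIPI2 and gabarapb). Each resting group holds only 1 such library. TMM factors ran from 0.970 to 1.39 in the 7 libraries with intestinal reads and from 0.739 to 1.08 in the others. A larger factor lowers the level, and the pattern was not read in plain CPM, so the part of the scaling in it was not tested. The pattern was not counted over all genes, so these numbers cannot be set beside those of other genes. For OPTN, a receptor for damaged mitochondria and bacteria, the 1 such library among resting 1-year fish was at 70.0 CPM beside a mean of 31.2 CPM in the rest of its group. For the vesicle protein ATG9A the corresponding values were 18.8 and 10.01 CPM.

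In 7 comparisons fitted together (edgeR quasi-likelihood test, Benjamini-Hochberg adjustment over all 18079 genes, called at an adjusted p under 0.05), 9 of the 37 genes were called at least once and 28 were not. How many of all genes were called at least once was not counted, so shares of all genes are given for each comparison. Age accounted for most of the calls among the members. Averaged over exercise, 5 genes were higher at 3 years (ATG4C, BECN1, GABARAPL2, ATG10 and ATG7) and 3 lower (WIPI1, ATG14 and ATG4B). That is 21.6% of the members beside 12.4% of all genes tested, or 13.5% beside 5.4% for higher and 8.11% beside 6.95% for lower. The median log2 fold change was -0.11 over the members and 0.04 over all genes, with 13 members above 0 and 24 below.

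In resting fish alone, 2 genes were higher at 3 years (ATG7 and ATG4C) and none lower, 5.41% beside 3.5% of all genes. In exercised fish 4 were higher (ATG4C, BECN1, ATG10 and SQSTM1) and 2 lower (ATG14 and ATG4B), 16.2% beside 9.17%; by direction 10.8% were higher beside 3.91% of all genes, and 5.41% lower beside 5.25%. Exercise at 1 year gave 1 call, higher ATG7, 2.70% beside 2.85%. Exercise at 3 years gave 0 calls among the members and 0% of all genes, and 0 member calls by DESeq2. Averaged over age, exercise gave 0 calls beside 1.95% of all genes, and 1 call by DESeq2 (WIPI1). The interaction of age and exercise gave 0 calls beside 0.979%, and 1 call by DESeq2 (ATG7). In these 3 comparisons 5, 7 and 8 of the 37 members had an unadjusted edgeR p under 0.05. The shares of all genes at that cut were 16.3%, 16.5% and 14.5%. The shares of all genes are those of edgeR, and shares called by DESeq2 are not given here. The comparisons share groups, so their counts are not independent of each other.

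Leaving out the 7 libraries with intestinal reads, which keeps 4, 3, 4 and 2 libraries per group, left 3 genes called for age averaged over exercise (ATG4C, BECN1 and SQSTM1), 1 for age at rest (ATG7), 0 for age in exercised fish and 0 for exercise at 1 year. Keeping all libraries with a term for the intestinal reads gave 12, 4, 6 and 3. Single libraries moved the counts as well. For age averaged over exercise, the count was 5 without any of resting 1-year replicates 1, 2 and 4, exercised 1-year replicate 3 or resting 3-year replicate 2. For age at rest the count was 1 without resting 1-year replicate 1, 2 or 4. For age in exercised fish it was 1 without exercised 1-year replicate 3 or exercised 3-year replicate 4, 2 without exercised 1-year replicate 2 or 5 or exercised 3-year replicate 5, and 3 without exercised 3-year replicate 1 or 2. For exercise at 1 year it was 0 without any of resting 1-year replicates 1, 2 and 4 or exercised 1-year replicate 3, 2 without resting 3-year replicate 4 and 3 without resting 1-year replicate 3. The interaction had 1 call without resting 1-year replicate 3, and exercise averaged over age 1 without resting 1-year replicate 5. The shares of all genes called in these fits are not given here, so the counts cannot be set beside those of other genes.

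**Figure D2:**
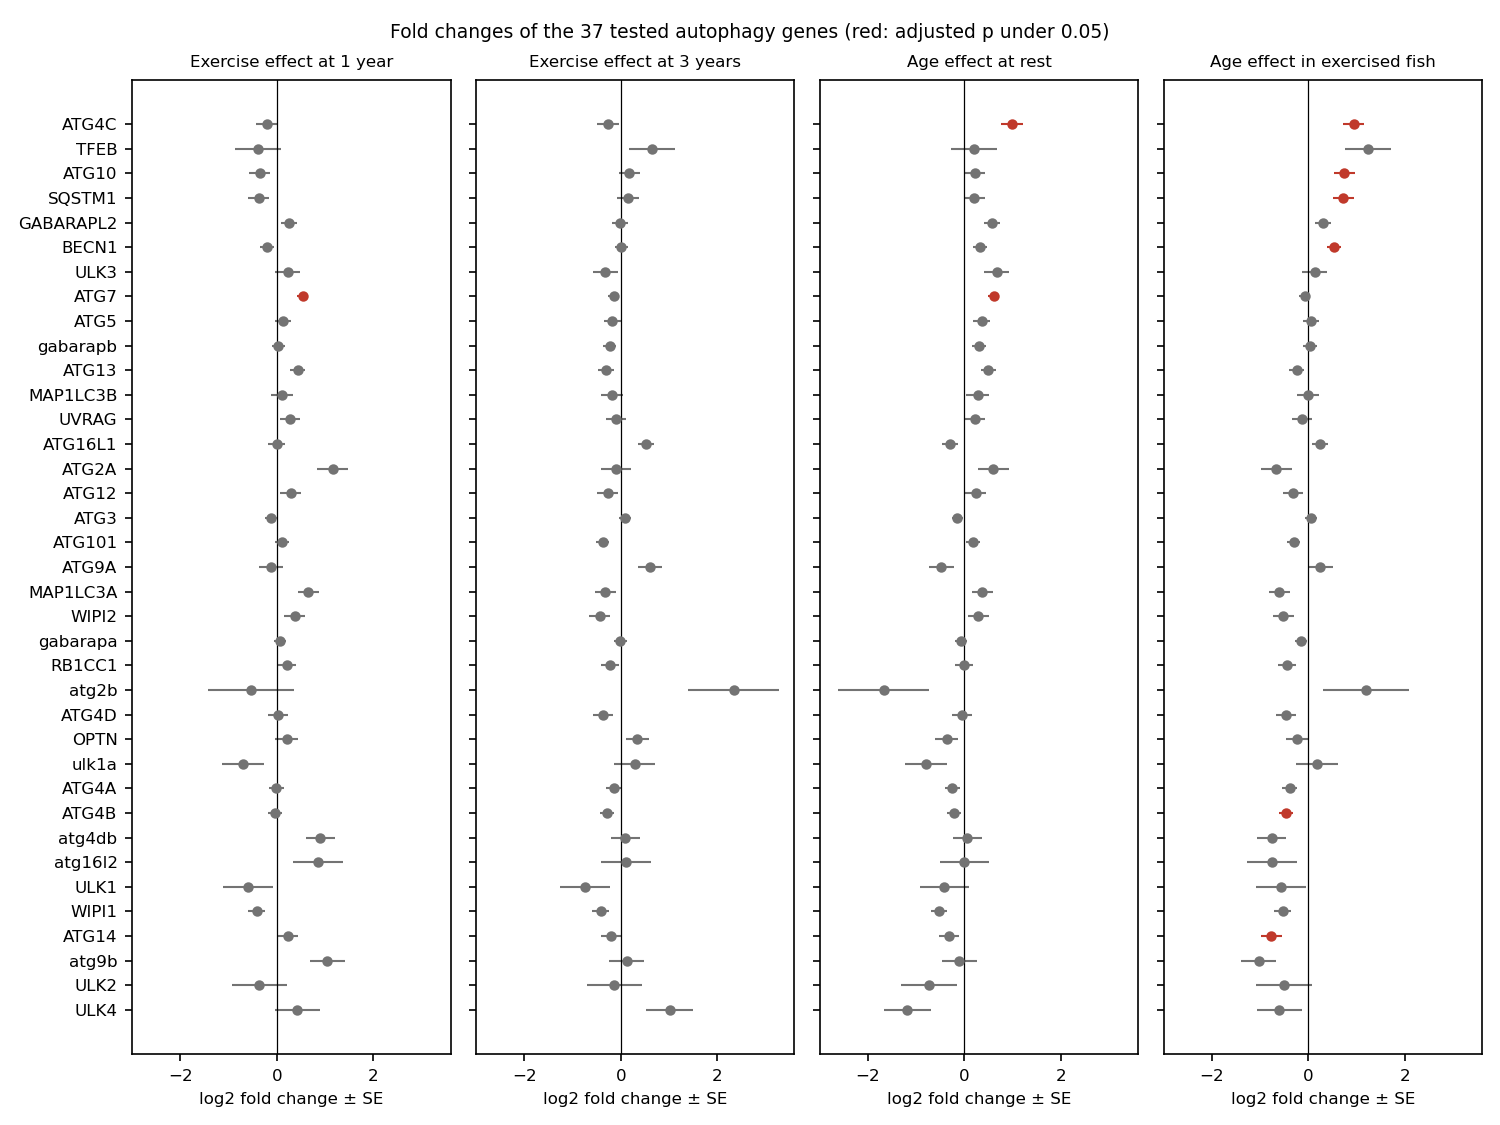
Log2 fold change ± SE of each tested autophagy gene in the 4 single comparisons, ordered by the average age effect. The 9 points with an adjusted p under 0.05 are 1 for exercise at 1 year, 0 for exercise at 3 years, 2 for age at rest and 6 for age in exercised fish.

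The initiating kinase complex joins an Atg1-type kinase (ULK1 or ULK2) to the scaffold RB1CC1 (FIP200), ATG13 and ATG101. None of its genes was called. Of the kinases, ULK2 made up 49.6% to 60.3% of the summed ULK level per kilobase by group mean, ULK4 0.25% to 0.648%, and the rest was ulk1a, ULK1 and ULK3. ATG13, which links the kinase to the scaffold, stood at 36.6, 35.6, 45.9, 43.0 and 33.1 CPM in resting 1-year fish and at 49.3, 51.1, 55.8, 46.0 and 59.7 CPM after exercise. At 3 years it stood at 53.4, 55.9, 48.6, 69.5 and 46.4 CPM at rest and 37.3, 35.3, 59.21, 52.2 and 38.0 CPM after exercise. On the TMM-corrected scale, resting 1-year fish did not overlap with either exercised 1-year or resting 3-year fish, while the 3-year groups overlapped. The lowest resting 1-year value, 33.1 CPM, was in replicate 5, the library with the largest TMM factor (1.39). Overlap in plain CPM was not examined. The log2 fold change was 0.43 ± 0.16 (SE) for exercise at 1 year and 0.50 ± 0.16 for age at rest, with adjusted p of 0.184 and 0.0969 by edgeR, neither called. With the 7 libraries left out they were 0.44 and 0.45 (adjusted p of 0.221 and 0.149). ATG13 was one of 4 members whose groups did not overlap for exercise at 1 year, with ATG2A, ATG7 and MAP1LC3A, and one of 3 for age at rest, with ATG7 and BECN1. Those are 10.8% beside 5.33% of all genes, and 8.11% beside 4.12%. No member separated the 3-year groups by exercise, beside 2.77% of all genes. ULK1 and ulk1a may be copies of 1 ancestral gene and may share reads, but ULK1 matched no gene in RefSeq's annotation.

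BECN1 (Beclin 1) and ATG14 are subunits of the same lipid kinase complex, and they moved apart with age averaged over exercise and in exercised fish. BECN1, the regulatory core, stood at 8.46, 7.90, 7.65, 7.34 and 6.76 CPM in resting and 6.84, 4.81, 6.58, 7.99 and 6.90 CPM in exercised 1-year fish. At 3 years the values were 11.1, 9.05, 8.83, 9.33 and 9.35 CPM at rest and 9.48, 8.55, 10.7, 11.6 and 7.61 CPM after exercise. Every resting 3-year library lay above every resting 1-year library, whereas the lowest exercised 3-year library lay below the highest exercised 1-year library. The log2 fold change with age was 0.43 ± 0.10 (SE) averaged over exercise, with an edgeR adjusted p of 0.00885, and 0.53 ± 0.14 in exercised fish, with 0.0233. The averaged call held without each library in turn and without the 7 libraries with intestinal reads (0.53, adjusted p = 0.0268). The call in exercised fish was lost without exercised 1-year replicate 2 or 3 or exercised 3-year replicate 4 (log2 fold change 0.40 to 0.53, adjusted p 0.0572 to 0.0836), and without the 7 libraries (0.78, adjusted p = 0.0596). At rest the change was 0.32 ± 0.14, adjusted p = 0.237.

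ATG14, the subunit that directs the complex to the forming autophagosome, went the other way. It stood at 11.7, 12.7, 9.32, 12.9 and 8.71 CPM in resting and 11.6, 13.9, 15.3, 11.0 and 13.2 CPM in exercised 1-year fish. The 3-year libraries were at 9.21, 5.80, 10.7, 9.65 and 8.81 CPM at rest and 7.02, 4.30, 11.2, 8.11 and 7.68 CPM after exercise. Exercised 3-year fish were mostly below exercised 1-year fish, and 1 of them, replicate 3, reached into that group. With age ATG14 fell by 0.54 ± 0.15 on the log2 scale averaged over exercise (edgeR adjusted p = 0.0236), in every fit without 1 library, and by 0.76 ± 0.21 in exercised fish (0.0305). Leaving out the 7 libraries with intestinal reads turned these into -0.50 and -0.48, with adjusted p of 0.0691 and 0.316, and not called. The call in exercised fish was also lost without exercised 1-year replicate 2, 3 or 5 or exercised 3-year replicate 1, 2, 4 or 5 (-0.80 to -0.61, adjusted p 0.0511 to 0.0819). At rest, with all libraries, the change of ATG14 with age was -0.32 (edgeR adjusted p = 0.486), not called. UVRAG, which takes the place of ATG14 in the form of the complex on endosomes, was at 3.27 ± 0.84 and 3.92 ± 0.47 CPM at 1 year and 3.81 ± 1.01 and 3.57 ± 0.79 CPM at 3 years (rest and exercise, mean ± SD, n = 5 each) and was called in no comparison.

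The lipid made by that complex is read by the WIPI proteins. WIPI1 stood at 10.6, 9.31, 10.3, 8.07 and 6.60 CPM in resting and 5.25, 6.18, 7.99, 6.06 and 8.07 CPM in exercised 1-year fish. At 3 years it stood at 7.17, 5.54, 6.15, 5.93 and 6.23 CPM at rest and 4.79, 4.11, 5.81, 5.29 and 3.25 CPM after exercise. Resting 1-year fish were the highest group and exercised 3-year fish the lowest, and neighbouring groups overlapped. Averaged over exercise WIPI1 fell by 0.53 ± 0.12 with age on the log2 scale (edgeR adjusted p = 0.00883), in every fit without 1 library. When the 7 libraries with intestinal reads were left out the change was -0.47, with an adjusted p of 0.057. Averaged over age, exercise gave -0.42 ± 0.12, adjusted p = 0.0883, and was not called, with -0.42 at each age.

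WIPI2, the relative that recruits ATG16L1, was at 22.2 ± 3.42 and 28.7 ± 5.73 CPM at 1 year and 27.1 ± 4.46 and 20.0 ± 7.83 CPM at 3 years (rest and exercise, mean ± SD, n = 5 each), and was called in no comparison. Of the summed level of WIPI1 and WIPI2 per kilobase, WIPI1 made up 22.2% ± 3.07 in resting 1-year fish. Its share was 14.2% ± 1.31, 14.0% ± 0.998 and 14.7% ± 3.14 in exercised 1-year, resting 3-year and exercised 3-year fish. The relatives WDR45 and WDR45B were not part of this sum. With the 7 libraries left out these shares were 22.6%, 13.4%, 13.6% and 12.3%. No test was made of these shares.

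The carriers that bring lipid to the membrane, ATG2A and the ATG9 genes, gave large fold changes that were not called. ATG2A stood at 7.88, 14.3, 20.7, 10.9 and 15.4 CPM in resting and 30.7, 27.2, 34.1, 27.5 and 34.9 CPM in exercised 1-year fish, without overlap, and its log2 fold change of 1.16 ± 0.32 had an edgeR adjusted p of 0.0609 (1.24 and 0.216 with the 7 libraries left out). At 3 years it stood at 20.9 ± 10.4 CPM at rest and 19.5 ± 5.58 CPM after exercise (mean ± SD, n = 5 each), with both groups spread widely. The scramblase gene atg9b stood at 11.7 ± 6.48 and 24 ± 6.25 CPM in resting and exercised 1-year fish and at 10.8 ± 3.66 and 11.8 ± 4.33 CPM at 3 years. All 5 exercised 3-year libraries of atg9b were below all 5 exercised 1-year libraries (log2 fold change -1.02 ± 0.36, adjusted p = 0.0857; -0.66 and 0.597 with the 7 libraries left out). Its relative ATG9A showed the reverse order at 3 years, 8.44 ± 2.52 CPM at rest and 12.9 ± 3.14 CPM after exercise (0.61 ± 0.25, adjusted p = 0.255), and is among the genes that were higher in libraries with intestinal reads in every group.

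ATG7 activates the Atg8 proteins and ATG12 before both conjugation systems, and was lowest in resting 1-year fish. It stood at 6.45, 5.55, 8.40, 6.11 and 7.74 CPM in resting 1-year fish. The other groups were higher, at 9.99, 9.50, 11.0, 9.49 and 9.60 CPM in exercised 1-year fish, 11.1, 10.3, 9.78, 10.2 and 10.8 CPM in resting 3-year fish and 10.4, 8.07, 10.1, 10.03 and 8.48 CPM in exercised 3-year fish. Resting 1-year fish did not overlap with exercised 1-year or resting 3-year fish, and the other 3 groups overlapped with each other. The log2 fold change was 0.53 ± 0.12 (SE) for exercise at 1 year (edgeR adjusted p = 0.0213) and 0.60 ± 0.12 for age at rest (0.0095). At 3 years exercise gave -0.15, and in exercised fish age gave -0.07.

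The difference between the exercise effects at 1 and at 3 years on ATG7 was -0.68 ± 0.17 on the log2 scale, with an edgeR adjusted p of 0.0672, which is not called. The age call at rest held without each library in turn and without the 7 libraries with intestinal reads (0.65, adjusted p = 0.0378). It was lost with only the 2 groups compared. The exercise call at 1 year was lost without any of resting 1-year replicates 1, 2 and 4 or exercised 1-year replicate 3 (0.46 to 0.51, adjusted p 0.0602 to 0.0618), and without the 7 libraries (0.59, adjusted p = 0.104). Averaged over exercise the age effect was 0.27 ± 0.08 (adjusted p = 0.0463). That call was lost in 18 of the 20 fits without 1 library, the exceptions being resting 1-year replicate 3 and exercised 3-year replicate 2 (0.22 to 0.28 in the 18, adjusted p 0.0528 to 0.109), and without the 7 libraries (0.31, adjusted p = 0.116).

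ATG10, the enzyme that joins ATG12 to ATG5, was the least abundant of the called genes. Resting and exercised 1-year fish stood at 1.20, 1.49, 2.08, 1.63 and 1.39 CPM and at 1.23, 1.16, 1.16, 1.49 and 1.06 CPM. Resting and exercised 3-year fish stood at 1.68, 2.22, 1.45, 2.56 and 1.16 CPM and at 1.62, 2.29, 2.15, 2.30 and 1.92 CPM. Exercised fish of 1 and 3 years did not overlap, and resting fish did. ATG10, ATG4C and TFEB were the 3 members that were higher without overlap for age in exercised fish and atg9b the 1 that was lower, 10.8% of the members beside 10.2% of all genes. Age gave a log2 fold change of 0.75 ± 0.22 in exercised fish (edgeR adjusted p = 0.0372), 0.48 ± 0.15 averaged over exercise (0.0457) and 0.22 at rest. The call in exercised fish was lost without any 1 of 8 libraries (exercised 1-year replicates 1, 2, 3 and 5 and exercised 3-year replicates 2, 3, 4 and 5; 0.69 to 0.75, adjusted p 0.0606 to 0.0916). The averaged call was lost without any of these 8 and of 6 others (resting 1-year replicates 1, 2, 4 and 5 and resting 3-year replicates 2 and 4; adjusted p 0.0665 to 0.0883 over the 14). Both calls were also lost without the 7 libraries with intestinal reads, where the changes were 0.88 and 0.55, with adjusted p of 0.197 and 0.149.

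The other conjugation genes were called in no comparison. ATG3, which passes Atg8 proteins to the lipid, had group means of 16.6 to 18.3 CPM. ATG5, the partner of ATG12, had 13.4 to 17.1 CPM, and ATG12 itself 2.12 to 2.64 CPM. ATG16L1, which places the ATG12 and ATG5 conjugate on the membrane, was at 6.96 ± 1.1 CPM in resting and 10.1 ± 2.05 CPM in exercised 3-year fish. Its log2 fold change of 0.53 ± 0.17 had the smallest p of any member for exercise at 3 years (edgeR adjusted p = 0.185), and it too was higher in libraries with intestinal reads in every group, 3 of which are among the exercised and 1 among the resting 3-year libraries.

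The ATG4 proteases trim newly made Atg8 proteins and later release them from the membrane, and of their 5 genes ATG4C and ATG4B changed with age in opposite directions. ATG4C stood at 5.54, 5.73, 14.0, 5.51 and 6.37 CPM in resting and 6.45, 7.27, 5.77, 6.41 and 6.28 CPM in exercised 1-year fish. At 3 years the values were 17.8, 16.1, 14.6, 12.4 and 13.01 CPM at rest and 11.1, 10.9, 13.3, 15.6 and 10.7 CPM after exercise. All 3-year libraries were above all 1-year libraries but resting 1-year replicate 3, which lay far above its group. With age ATG4C rose by 0.96 ± 0.16 on the log2 scale averaged over exercise (edgeR adjusted p = 0.00101), by 0.99 ± 0.22 at rest (0.0203) and by 0.94 ± 0.22 in exercised fish (0.0153). Without the 7 libraries with intestinal reads the values were 0.98, 0.92 and 1.04, with adjusted p of 0.0298, 0.127 and 0.155. The averaged call and that in exercised fish held without each single library, and the call at rest was lost without resting 1-year replicate 1, 2 or 4 (0.90 to 0.91, adjusted p 0.0555 to 0.0716).

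ATG4B, the form with the broadest activity on Atg8 proteins in mammals, stood at 7.88, 5.99, 5.41, 6.11 and 5.48 CPM in resting and 4.38, 5.47, 6.42, 6.92 and 6.87 CPM in exercised 1-year fish. The 3-year values were 5.58, 5.09, 5.64, 5.54 and 4.68 CPM at rest and 4.13, 4.03, 5.12, 4.55 and 3.91 CPM after exercise. Exercised 3-year fish were the lowest group, and the groups compared overlapped. With age it fell by 0.34 ± 0.10 on the log2 scale averaged over exercise (edgeR adjusted p = 0.0337) and by 0.47 ± 0.14 in exercised fish (0.0477). Neither call held without the 7 libraries with intestinal reads, where the changes were -0.29 and -0.28, with adjusted p of 0.24 and 0.567. At rest, with all libraries, ATG4B changed by -0.22 with age (edgeR adjusted p = 0.491), not called.

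The averaged call of ATG4B was lost without any 1 of 10 libraries (resting 1-year replicates 1, 2 and 4, exercised 1-year replicates 3, 4 and 5, resting 3-year replicates 2 and 5 and exercised 3-year replicates 1 and 2; -0.35 to -0.29, adjusted p 0.0516 to 0.0706). The call in exercised fish was lost without any 1 of 14 libraries (resting 1-year replicates 2, 3 and 4, exercised 1-year replicates 3, 4 and 5, resting 3-year replicates 1, 2, 3 and 5 and exercised 3-year replicates 1, 2, 4 and 5; -0.49 to -0.41, adjusted p 0.0522 to 0.123). ATG4B overlaps dtymk, a thymidylate kinase gene, in RefSeq's annotation, and the library kit does not mark strand, so their reads cannot be told apart where they overlap. DTYMK had a log2 fold change of -1.23 ± 0.43 with age averaged over exercise (adjusted p = 0.0688).

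Per kilobase, the 5 protease genes summed to 7.96 ± 1.09 and 8.02 ± 0.66 CPM at 1 year and to 9.51 ± 1.00 and 8.0 ± 0.90 CPM at 3 years (rest and exercise, mean ± SD, n = 5 each). ATG4C made up 27.0% ± 9.16 and 24% ± 2.83 of that sum at 1 year and 46.0% ± 2.71 and 45.6% ± 2.90 at 3 years. ATG4B made up 43.0% ± 8.08 and 40.8% ± 4.87 at 1 year and 30.7% ± 3.11 and 29.8% ± 1.78 at 3 years. The leading protease gene by group mean was thus ATG4B in both 1-year groups and ATG4C in both 3-year groups. The shares of ATG4C in single libraries were 20.0% to 42.8% and 21.3% to 27.9% at 1 year and 42.4% to 49.5% and 43.1% to 50.6% at 3 years, so only the highest resting 1-year library reached the 3-year range. Without the 7 libraries with intestinal reads the means were 27.0%, 25.3%, 45.9% and 47.9%. No test was made of these shares. ATG4A and ATG4D were lower in level at 3 years by group mean, and atg4db was highest in exercised 1-year fish (1.41 ± 0.41 CPM), with no call for any of the 3. ATG4D and atg4db are copies of 1 ancestral gene and may share reads.

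**Figure D3:**
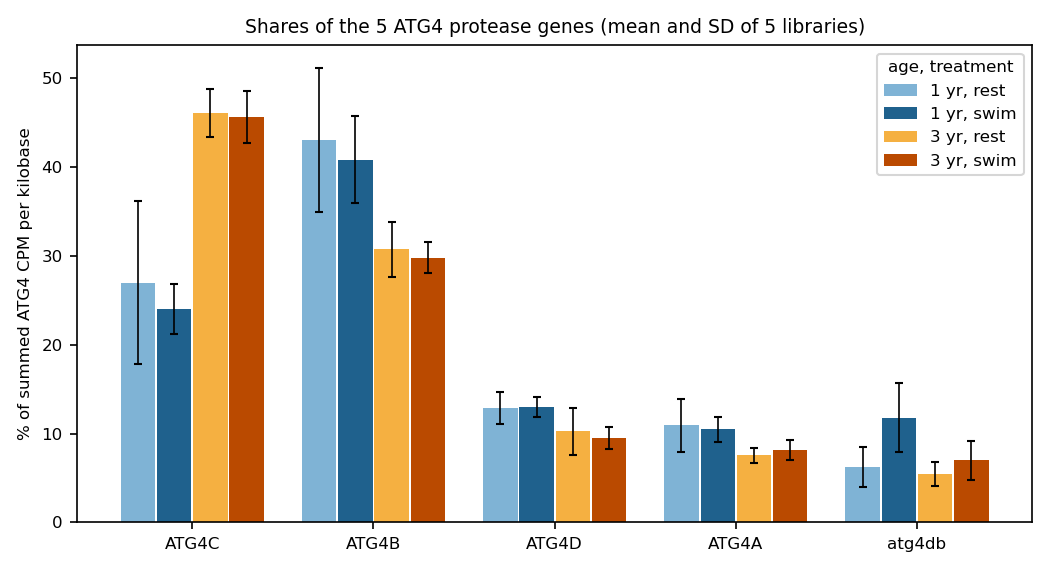
Share of each protease gene in the summed ATG4 level per kilobase, as mean and SD of 5 libraries per group. ATG4C stands at 27.0% and 24% in the 1-year groups and at 46.0% and 45.6% in the 3-year groups, and ATG4B stands below it at 3 years.

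Of the Atg8 family, GABARAPL2 was called. It stood at 26.4, 25.3, 23.8, 30.4 and 23.9 CPM in resting and 27.4, 31.7, 34.6, 28.9 and 32.4 CPM in exercised 1-year fish. At 3 years it stood at 31.4, 43.1, 33.03, 56.1 and 29.3 CPM at rest and 35.0, 32.0, 48.8, 42.2 and 33.4 CPM after exercise. The 3-year groups reached higher and spread more widely, and they overlapped with the 1-year groups. The age effect averaged over exercise was 0.44 ± 0.12 on the log2 scale (edgeR adjusted p = 0.0223). The call was lost without exercised 1-year replicate 2, with a log2 fold change of 0.40 and an adjusted p of 0.0574, and without the 7 libraries with intestinal reads (0.53, adjusted p = 0.0564).

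The main LC3 genes were called in no comparison. MAP1LC3A stood at 33.2, 31.2, 38.1, 34.2 and 26.6 CPM in resting and 51.4, 39.2, 61.8, 46.9 and 56.9 CPM in exercised 1-year fish, without overlap. Its log2 fold change was 0.65 ± 0.22 for exercise at 1 year (edgeR adjusted p = 0.135), and -0.32 at 3 years, neither called. With the 7 libraries left out these were 0.56 and 0.06, with adjusted p of 0.324 and 0.966. MAP1LC3B had group means of 42.6 to 51.3 CPM and gabarapa of 42.6 to 47.5 CPM, with no call. The copies gabarapa and gabarapb may share reads.

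SQSTM1 was the called cargo receptor. In resting and exercised 1-year fish it stood at 66.4, 63.6, 40.3, 60.0 and 60.3 CPM and at 38.3, 39.1, 42.8, 58.4 and 45.7 CPM. In resting and exercised 3-year fish it stood at 50.9, 67.4, 60.2, 93.4 and 62.7 CPM and at 68.4, 49.9, 72.6, 120.0 and 60.9 CPM. Exercised 1-year fish were the lowest group, and exercised 3-year replicate 4 was the highest library of all. The log2 fold change with age was 0.73 ± 0.22 in exercised fish (edgeR adjusted p = 0.0444), 0.20 at rest and 0.47 ± 0.16 averaged over exercise (0.0575, not called). The call in exercised fish was lost in 15 of the 20 fits without 1 library (0.49 to 0.76, adjusted p 0.0516 to 0.128). The 5 fits that kept it were those without resting 1-year replicate 3, exercised 1-year replicate 4, resting 3-year replicate 1 or 4 or exercised 3-year replicate 2. Without the 7 libraries with intestinal reads the change was 1.16, with an adjusted p of 0.0576.

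OPTN was at 39.0 ± 17.4 and 45.0 ± 9.98 CPM at 1 year and 30.3 ± 3.58 and 38.4 ± 9.13 CPM at 3 years (rest and exercise, mean ± SD, n = 5 each) and was not called. TFEB, the transcription factor that drives lysosomal and autophagy genes, was at 1.06 ± 0.60 CPM in exercised 1-year and 2.52 ± 0.59 CPM in exercised 3-year fish, without overlap. Its log2 fold change of 1.24 ± 0.48 had an edgeR adjusted p of 0.116, and with the 7 libraries left out it was 1.52, with an adjusted p of 0.305.

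**Figure D4:**
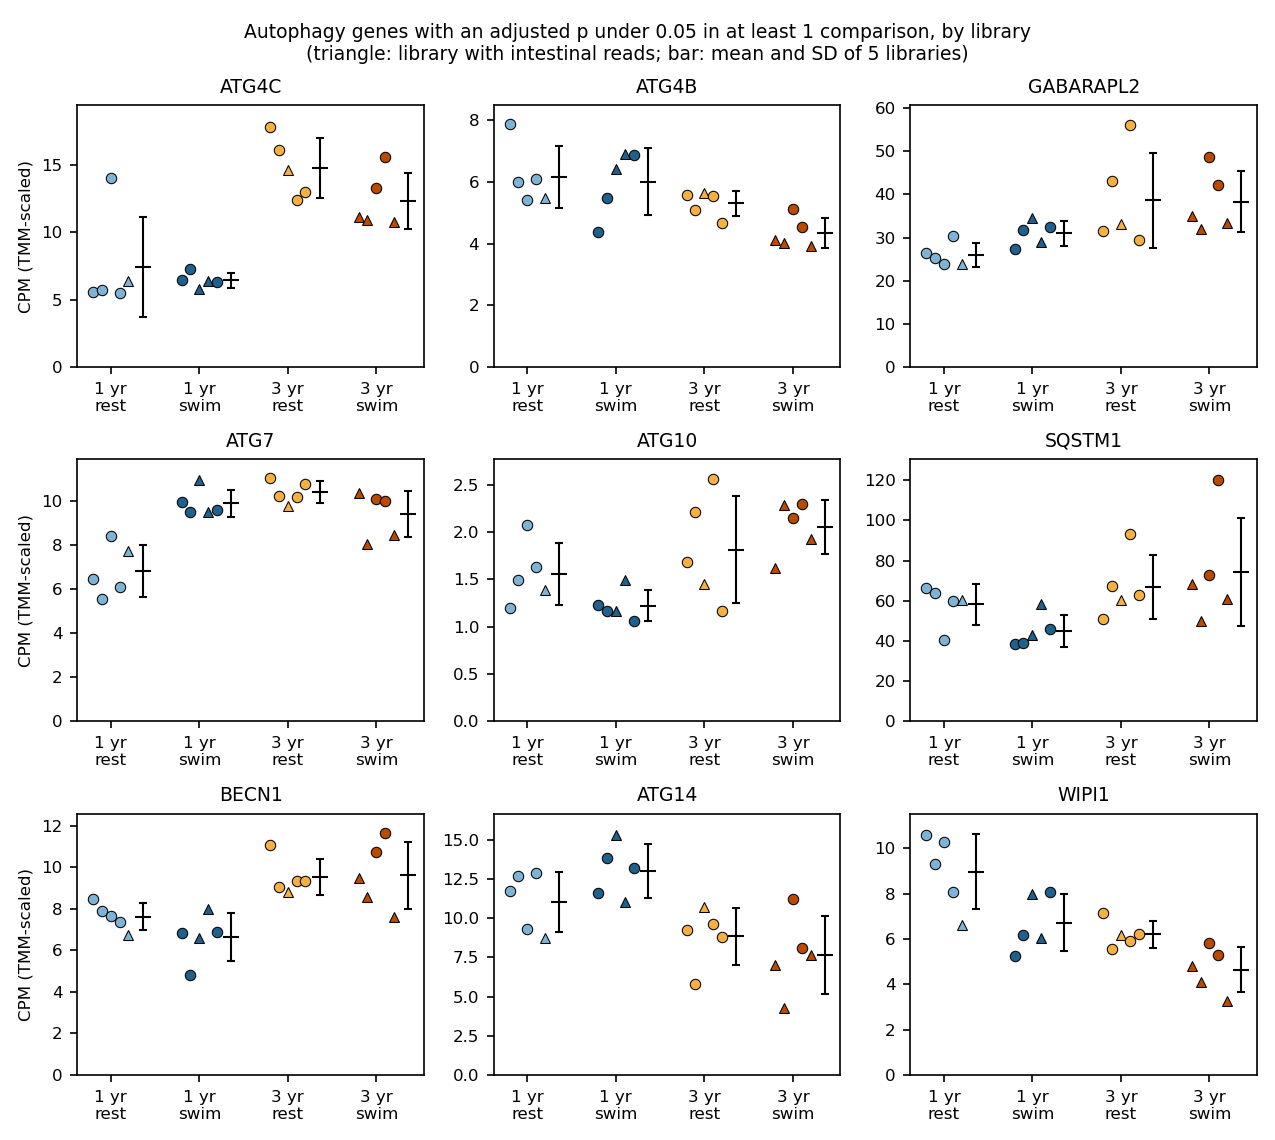
CPM of the 9 called autophagy genes in each library by group, with mean and SD of 5 libraries and triangles for the 7 libraries with intestinal reads. ATG4C is higher in both 3-year groups, ATG7 is lower in resting 1-year fish than in the other groups, and WIPI1 is highest in resting 1-year fish and lowest in exercised 3-year fish.

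Some markers of other cells were called with age too. Of all genes tested, 5.4% were higher and 6.95% lower with age averaged over exercise, and 3.91% and 5.25% in exercised fish. For age at rest and exercise at 1 year, 3.5% and 2.85% of all genes were called. A list with 1 call among few genes is therefore not read as having moved. Averaged over exercise, the comparison with 8 member calls, 6 of 11 tested genes of the myeloid list were higher at 3 years (median log2 fold change 0.89), 1 of 14 of the intestine list was lower (median -0.53) and 1 of 15 of the hepatocyte list higher (median 0.09). In exercised fish alone, with 6 member calls, 8 of the myeloid list were higher (median 1.45). The list's summed level, led by MPEG1, was 23.6 to 79.8 plain CPM in exercised 1-year and 85.3 to 188 plain CPM in exercised 3-year fish. This and the sums that follow lack the TMM correction, so gaps or overlaps between groups may differ on the scale of the gene levels. The lymphocyte list had 1 of 7 higher (median 2.07), with sums of 1.8 to 22.0 and 48.4 to 86.0 CPM. The biliary list had 1 of 5 higher (median 0.62), with sums of 568 to 841 and 1130 to 1506 CPM. The intestine list had 1 of 14 lower, but a positive median of 0.52, and its sums were 1698 to 12421 CPM (median 3021) in exercised 1-year and 385 to 9053 CPM (median 5974) in exercised 3-year fish. None of the 17 tested pancreas markers was called (median 0.71). No marker of these lists was at 0 in every library, and their part in the changes of the autophagy genes was not tested. For age at rest none of the myeloid list was called and 1 of the intestine list was lower, and for exercise at 1 year 2 of the myeloid list and 1 of the intestine list were lower.

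Read by age, the exercise effects on the autophagy genes differed in sign for most members with all 20 libraries, though not with the 7 libraries with intestinal reads left out, and none of the differences was called. Of 37 genes, 17 had a positive log2 fold change at 1 year and a negative one at 3 years, 9 the reverse, 5 were positive at both ages and 6 negative at both. With the 7 libraries left out, these numbers were 10, 8, 13 and 6. The signs were not counted over all genes, so these numbers cannot be set beside those of other genes. The median log2 fold change with exercise was 0.11 at 1 year and -0.13 at 3 years, beside -0.04 and 0.04 over all genes. The smallest p of the interaction belonged to ATG7, ATG13 (-0.73 ± 0.23) and MAP1LC3A (-0.97 ± 0.31), with edgeR adjusted p of 0.0672, 0.15 and 0.162.

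**Figure D5:**
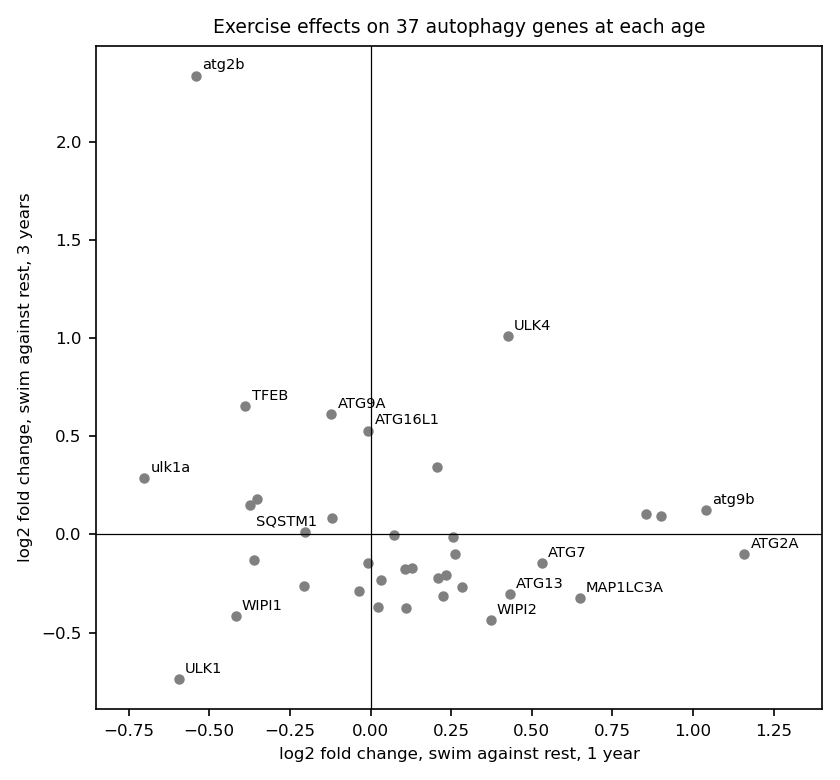
Log2 fold change with exercise at 1 year (horizontal) and at 3 years (vertical) for the 37 tested autophagy genes. With all 20 libraries, most points lie right of 0 and below 0 or left of 0 and above it, 17 and 9 of them, and ATG2A, atg9b, MAP1LC3A and ATG7 are to the right, between -0.32 and 0.12 on the vertical axis.

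Genes that surround the core machinery were read from 6 lists, of which 92 genes were found and 88 tested. Exercise at 1 year raised 4 of them and lowered none, 4.55% beside 2.85% of all genes, 3 of these among the 17 cargo receptors outside the core set. The ferritin receptor ncoa4 went from 122 ± 28.7 to 255 ± 16.5 CPM (log2 fold change 1.06 ± 0.27, edgeR adjusted p = 0.0416). The ubiquitin-binding receptors nbr1a (0.68 ± 0.15) and TAX1BP1 (ENSDARG00000056856; 0.52 ± 0.12) also rose. The ncoa4 call was lost in 14 of the 20 fits without 1 library (adjusted p 0.0518 to 0.115), that of TAX1BP1 in 7 (0.0558 to 0.0856) and that of nbr1a in 4 (0.0525 to 0.0656). All of these 3 were also lost without the 7 libraries with intestinal reads (1.12, 0.59 and 0.65 on the log2 scale, adjusted p of 0.155, 0.16 and 0.151). The fourth was FOXO1 (ENSDARG00000099555), a transcription factor of fasting, which was higher with exercise averaged over age too, at 24.8 ± 28.9 and 158 ± 52.7 CPM at 1 year and 28.8 ± 7.56 and 102 ± 45.0 CPM at 3 years (2.24 ± 0.38, adjusted p = 0.00899). Both calls of this FOXO1 gene held without each single library and without the 7. The call at 1 year was lost in 1 of the 6 alternatives other than leaving out a single library. Another gene of the list with the symbol FOXO1 was not among the called genes. Exercise at 3 years gave 0 calls by edgeR and 4 calls by DESeq2, for which the share of all genes is not given here. An unadjusted edgeR p under 0.05 was found for 16 of the 88, beside 16.3% of all genes.

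For TAX1BP1 the exercise effect itself differed between ages, with an interaction of -0.86 ± 0.18 (edgeR adjusted p = 0.0252), the 1 call of the lists there, 1.14% beside 0.979% of all genes. That call was lost in 6 of the 20 fits without 1 library (adjusted p 0.0524 to 0.063) and without the 7 libraries (-0.90, adjusted p = 0.283). It stood at 75.6 ± 9.15 and 109 ± 11.9 CPM at 1 year and 99.8 ± 15.1 and 79.1 ± 3.8 CPM at 3 years (rest and exercise, mean ± SD, n = 5 each). With age in exercised fish the same receptors fell, ncoa4 by 1.4 ± 0.28, nbr1a by 0.51 ± 0.15 and TAX1BP1 by 0.46 ± 0.12, as did the mitochondrial receptor BNIP3L (ENSDARG00000028067) by 0.86 ± 0.25, while FUNDC2 rose by 0.64 ± 0.20. These comparisons share the exercised 1-year group. The ncoa4 call held without each single library, whereas that of nbr1a was lost in 7 of the 20 fits, TAX1BP1 in 5, BNIP3L in 6 and FUNDC2 in 13. None of the 5 was called without the 7 libraries (adjusted p 0.0654 to 0.409). The other genes of the list with the symbols TAX1BP1 and BNIP3L were tested and called by edgeR in no comparison.

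In all, 2 of the 88 genes were higher and 9 lower with age in exercised fish, where 3.91% and 5.25% of all genes were. Of 28 tested genes of mTORC1, the kinase complex that holds autophagy back when nutrients are plentiful, and its regulators, 4 fell and 1 rose. MTOR itself fell by 1.8 ± 0.45 on the log2 scale, from 104 ± 45.8 to 29.9 ± 3.27 CPM. Its inhibitory partner DEPTOR fell by 1.37 ± 0.35, from 240 ± 52.9 to 93.0 ± 43.1 CPM. Of the stress-induced inhibitors, SESN1 fell by 1.32 ± 0.34 and DDIT4 fell by 3.84 ± 1.0, and sesn2 rose by 1.44 ± 0.43. The kinase gene itself and genes of inhibitors of the complex were therefore both among those that fell. PLEKHM1, an adaptor for fusion with lysosomes, fell by 0.85 ± 0.22. Single libraries ended the call of sesn2 in 9 of the 20 fits, of DEPTOR, SESN1 and DDIT4 in 4 each, of PLEKHM1 in 2 and of MTOR in 1. None of the 6 was called for age in exercised fish without the 7 libraries (adjusted p 0.0862 to 0.357).

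At rest, 2 of the 88 were higher with age and none lower, 2.27% beside 3.5% of all genes. They were WDR45, a WIPI relative (0.89 ± 0.22, edgeR adjusted p = 0.0342), and VPS41, a subunit of the tethering complex for fusion with the lysosome (1.01 ± 0.21, adjusted p = 0.0119). VPS41 stood at 5.69 ± 2.47 CPM in resting 1-year fish and at 9.64 ± 0.50, 11.5 ± 1.13 and 11.2 ± 1.70 CPM in exercised 1-year, resting 3-year and exercised 3-year fish. The VPS41 call held without each single library and without the 7 (1.25, adjusted p = 0.00989), but was lost in 1 of the 6 alternatives other than leaving out a single library. The WDR45 call was lost in 8 of the 20 fits and without the 7 (0.81, adjusted p = 0.0596). Averaged over exercise, 3 were higher (VPS41, VAMP8 and DEPDC5) and 11 lower, 15.9% beside 12.4% of all genes, among the lower ones the fusion proteins SNAP29 (-0.49 ± 0.11, adjusted p = 0.00605) and YKT6 (-0.44 ± 0.12, adjusted p = 0.0203) and the membrane protein ZFYVE1 (-0.75 ± 0.18, adjusted p = 0.00945). Also lower were SESN1 (-1.23 ± 0.24, edgeR adjusted p = 0.00304) and DEPTOR (-1.07 ± 0.25, 0.00945) of the mTORC1 list. Both held without each single library and without the 7 (-1.27 and -0.97, adjusted p of 0.00811 and 0.0147). MTOR was lower as well (-1.10 ± 0.31, adjusted p = 0.0263). Its call was lost in 4 of the 20 fits and without the 7 (adjusted p = 0.1155). The VAMP8 call was lost in 16 of the 20 fits and that of DEPDC5 in 2, while VPS41, SNAP29, YKT6 and ZFYVE1 held in each. Without the 7 libraries VPS41, DEPDC5 and SNAP29 were still called, and VAMP8, YKT6 and ZFYVE1 were not (adjusted p 0.0764, 0.0738 and 0.0966). None of 9 tested partners of the initiating and lipid kinase complexes was called by edgeR in any comparison. By comparison, 2 to 4 of the 9 had an unadjusted p under 0.05, beside 14.5% to 27.0% of all genes.

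Calls among the 88 genes, once the 7 libraries with intestinal reads were left out, numbered 2 for exercise at 1 year, 2 for age at rest, 0 for age in exercised fish, 0 for the interaction, 6 for age averaged over exercise and 1 for exercise averaged over age. With a term for them the counts were 5, 8, 12, 2, 18 and 1. Shares of all genes called in these fits, and in the fits without 1 library that follow, are not given here. Single libraries moved these counts as well. Without exercised 1-year replicate 3 there was 1 call for exercise at 1 year, 2 for age in exercised fish, 0 for the interaction and 9 for age averaged over exercise. The count for age in exercised fish was also 3, 4, 5 and 7 without exercised 3-year replicate 1, 2, 4 and 5, 5 without exercised 1-year replicate 5 and 17 without resting 1-year replicate 5. For exercise at 1 year it was 1 or 2 without any of resting 1-year replicates 1, 2 and 4 or exercised 1-year replicate 1, 2 or 5. For age at rest it was 1 without resting 1-year replicate 1 or 2, 5 without replicate 3, and 4 without resting 1-year replicate 5, exercised 1-year replicate 4 or exercised 3-year replicate 5. The interaction call was lost without any of resting 1-year replicates 1 and 2, exercised 1-year replicates 3 and 5 or exercised 3-year replicate 2 or 5, and there were 2 such calls without resting 1-year replicate 5, exercised 1-year replicate 4, resting 3-year replicate 1 or exercised 3-year replicate 3. For exercise averaged over age the count was 4 without resting 1-year replicate 5, 3 without exercised 3-year replicate 3 and 2 without exercised 1-year or resting 3-year replicate 5, and for exercise at 3 years it was 1 without resting 1-year replicate 5.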

How the data were processed

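The study sequenced liver RNA of 20 male zebrafish samples in 4 groups of 5, grouped by the labels' age and perturbation fields. The deposited values are whole-number read counts per gene and RPKM. The submitters' processing notes name bcl2fastq 1.8.4, STAR 2.4.1d, featureCounts 1.4.6-p4 and the build GRCz10. The kit, TruSeq RNA v2 per the labels' protocols, does not mark strand. The sources used here do not say how reads shared by near-identical genes were counted. The deposited RPKM were used only for gene lengths: in 1399 genes that reached 1000 counts in all libraries, the implied length varied by at most 0.00013 (coefficient of variation) when the authors' RPKM were taken as divided by the 20 totals recycled along the rows, and by a median of 0.14 with each library's own total.

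Of the 32105 genes, 26269 matched a symbol. Counts were filtered with filterByExpr, scaled by TMM and fitted with edgeR 4.0.16 (R 4.3.3) to all 20 samples as 4 group means, with the quasi-likelihood test for 7 contrasts and Benjamini-Hochberg adjustment over 18079 genes. Standard errors come from the test statistic. Scripts were tested on simulated data. Alternatives were DESeq2 1.42.0, its size factors, no count filter, only the 2 groups compared, and each library left out. The intestinal libraries were also left out or given a term. In RefSeq's annotation of another build (used for names only), 17 of 38 matched members overlap another gene, 13 of them a protein-coding one. Of the called genes these are ATG4B (dtymk), BECN1 (med1), GABARAPL2 (adat1) and SQSTM1 (mrnip). MED1 and ADAT1 had log2 fold changes of 0.10 ± 0.17 and 0.08 ± 0.22 with age averaged over exercise.

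The members and all lists were chosen with earlier results of these data known. Library values are given for every member called in at least 1 contrast, and at most 4 called genes per pathway list and contrast are named, by smallest p. ATG13, ATG2A and MAP1LC3A with their library values, and FUNDC2, sesn2 and VAMP8, were picked after their values were seen.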

Additional observations from a re-analysis of the deposited data

Results flagged for a closer look

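In 148 sets of 5 libraries (37 tested autophagy genes in 4 groups), 11 held a library that stood far from the others by Dixon's test at 95%, which chance alone flags in about 1 of 20. Among the called genes, ATG4C was at 14.0 CPM in resting 1-year replicate 3 beside 5.51 to 6.37 in the other 4, and SQSTM1 was low in the same library, at 40.3 CPM beside 60.0 to 66.4. ATG4B was at 7.88 CPM in resting 1-year replicate 1 beside 5.41 to 6.11, and BECN1 at 11.1 CPM in resting 3-year replicate 1 beside 8.83 to 9.35. Resting 1-year replicate 3 also held atg2b at 1.28 CPM beside 0.0563 to 0.209, and resting 3-year replicate 1 held WIPI2 at 34.8 CPM beside 24 to 27.0. In libraries with intestinal reads, ATG9A was at 18.8 CPM in resting 1-year replicate 5 beside 8.16 to 11.0 and at 12.9 CPM in resting 3-year replicate 3 beside 6.97 to 7.65. There too, OPTN was at 70.0 CPM in resting 1-year replicate 5 beside 29.2 to 33.2, and ulk1a at 52.3 CPM in exercised 3-year replicate 1 beside 9.57 to 17.2. The last was atg4db, at 1.04 CPM in resting 3-year replicate 5 beside 0.667 to 0.76. The part of the intestinal reads in these values was not tested.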

How the results depend on the processing

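The counts of called autophagy genes kept within 1.5 times of their value with DESeq2 size factors in all 7 comparisons. For exercise at 1 year the count of 1 became 0 with no filter on low counts, 3 with the DESeq2 test, 0 without the libraries with intestinal reads and 3 with a term for them. For age at rest the count of 2 became 4 with the DESeq2 test, 1 without those libraries, 4 with the term and 0 with only the 2 groups compared. For age in exercised fish the count of 6 became 0 without those libraries and 3 with only the 2 groups. The DESeq2 test gave 1 for the interaction and 1 for exercise averaged over age, where edgeR gave 0. For age averaged over exercise the count of 8 became 3 when the libraries with intestinal reads were left out. With each library left out in turn, the counts ran from 0 to 3 for exercise at 1 year, 0 to 0 for exercise at 3 years, 1 to 3 for age at rest, 1 to 7 for age in exercised fish, 0 to 1 for the interaction, 5 to 8 for age averaged over exercise and 0 to 1 for exercise averaged over age. The causes were not tested, though leaving out libraries also leaves fewer samples. Over 17 fold changes of called autophagy genes and 434 alternative values, 308 kept the call, 126 lost it and 0 changed sign. Over 33 fold changes of called pathway genes and 842 values, 653 kept it, 189 lost it and 0 changed sign. The DESeq2 test gave 7, 4, 11, 20, 5, 19 and 4 calls among the 88 pathway genes, where edgeR gave 4, 0, 2, 11, 1, 14 and 1 (exercise at 1 and 3 years, age at rest and in exercised fish, interaction, age and exercise averaged). With no filter on low counts these were 2, 0, 1, 6, 0, 13 and 1. Shares of all genes called under any of these alternatives are not given here, so the counts cannot be set beside those of other genes. The shares of ATG4B, ATG4C and WIPI1 in their families were recomputed only without 1 library of the group or without the 7. Leaving out 1 or 2 of 5 values always moves a mean by less than their SD, so these fits cannot show how stable the shares are. Only exercised 3-year fish lost 3 libraries with the 7. There ATG4B went from 29.8% to 29.6%, ATG4C from 45.6% to 47.9% and WIPI1 from 14.7% to 12.3%. No paired analysis was possible because the replicate numbers were given in accession order and tie no samples together. Depth limits what can be said of map1lc3c, map1lc3cl and atg2b, which had 0 reads in 7, 10 and 1 of 20 libraries.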
